A study of Mus musculus with 12 samples.

Results

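The genes described here are 10 immediate early genes of the mouse: the zinc finger factors Egr1, Egr2 and Egr3, the orphan nuclear receptors Nr4a1, Nr4a2 and Nr4a3, the immediate early response genes Ier2, Ier3 and Ier5, and Zfp36, which encodes the mRNA decay factor tristetraprolin. They were chosen by symbol, as the rows with these names among the 24221 genes of the authors' deposited table, and all 10 were found. Immediate early genes are transcribed within minutes of a growth factor, cytokine or stress signal without new protein synthesis, mostly through SRF with its cofactors, CREB and NF-κB. Their mRNAs are short lived, and many of their products feed back on the response: NAB proteins restrain the EGR factors, and ZFP36 speeds the decay of AU-rich cytokine mRNAs and of its own. In myeloid cells, EGR factors are known for their part in monocyte and macrophage differentiation, and loss of Nr4a1 together with Nr4a3 gives acute myeloid leukaemia in mice.

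RNA sequencing was carried out on C57BL/6 mouse acute myeloid leukaemia cells that express the MLL-AF9 fusion oncogene and carry loxP-flanked alleles of Riok2, a kinase of small ribosomal subunit maturation. Cells received hydroxytamoxifen (OHT), which activates tamoxifen-dependent Cre recombinases, or its solvent ethanol (EtOH) for 72 h, with 3 samples in each group. The Cre construct of the cells is not named in the labels, there was no OHT group without floxed alleles, and the labels do not say whether the 3 samples of a group came from separate cultures; the p-values then reflect only how much these samples varied, possibly for technical reasons. The DMSO and RIOK2 inhibitor samples of the same series were not analysed here.

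The deposited values are 1 row per gene for the comparison of OHT with EtOH: a base mean in normalised reads, a log2 fold change, the standard error (SE) of that value and p-values from a Wald test of DESeq2, adjusted over the tested genes. A library held 20307732 normalised reads on average, as the sum of the base means in the authors' deposited table. The direction was read from the targeted gene: for Riok2 the authors' deposited table gives -3.60 ± 0.20 (SE) on the log2 scale, so a positive value is taken to mean higher in OHT. Whole reads per library were worked back from the deposited base mean, fold change and SE for 9 of the 10 genes and for Riok2. These libraries carry no sample names; they are told apart by their size factors, which were 1.88, 1.01 and 0.697 on the OHT side and 1.11, 0.870 and 0.783 on the EtOH side, and are always given in that order. Riok2 had 104, 84.9 and 125 normalised reads in the OHT libraries, against 1552, 1190 and 1219 in the EtOH libraries. No test was made on recovered reads.

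Of the 10 genes, 5 rose in OHT (Egr1, Egr2, Ier3, Ier5 and Zfp36), 0 fell, 4 were tested and did not pass (Egr3, Nr4a1, Nr4a2 and Ier2), and Nr4a3 has no adjusted p-value in the authors' deposited table. Of all 13814 genes tested there, 25.5% were higher in OHT and 23.4% lower at an adjusted p under 0.05, which makes 48.9% in either direction. The members' count of 5 higher among 9 tested is to be read beside that 25.5%, and the 9 are few. The median log2 fold change of the 9 tested members was 1.50 in the authors' deposited table, beside 0.05 over all tested genes. In bulk RNA, more cells that express a gene and more RNA of it per cell cannot be told apart.

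**Figure D1:**
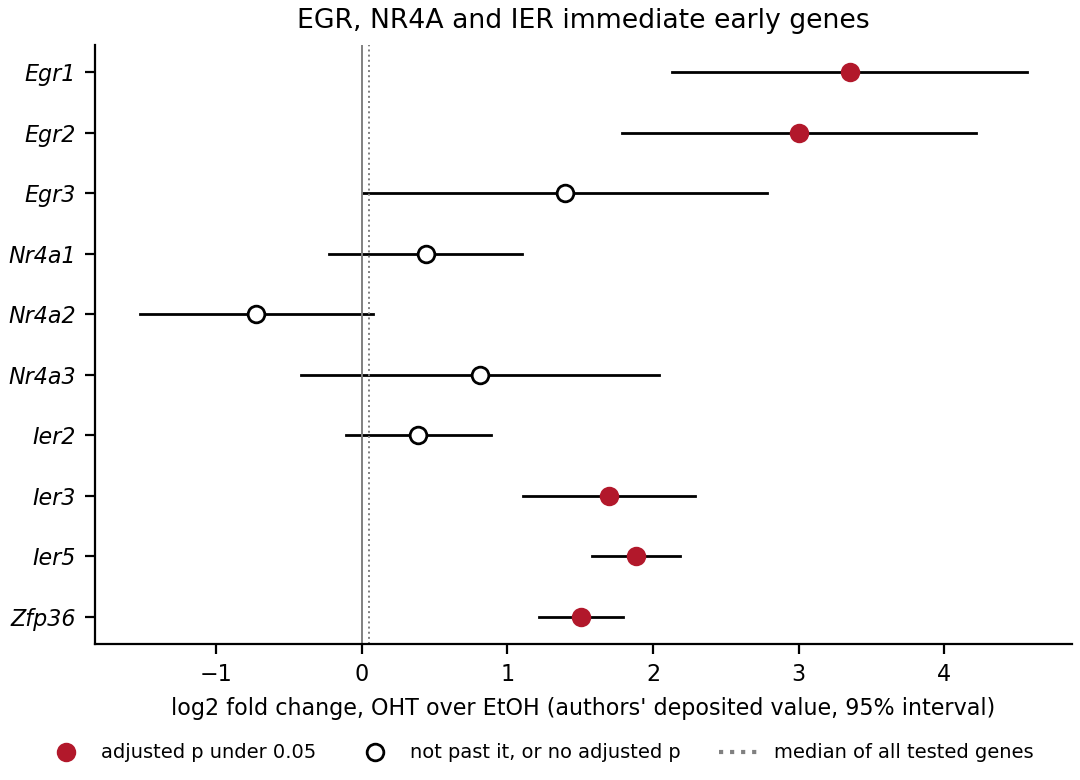
Log2 fold change of each of the 10 genes, OHT over EtOH, from the authors' deposited table (x axis), with lines for 95% intervals. Filled points passed an adjusted p of 0.05; Egr1 and Egr2 lie highest with the widest intervals among these, and Nr4a2 is the 1 gene with a value below 0.

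Egr1 and Egr2 had the highest fold changes of the 10 genes. Egr1, on chr18:34859823-34864984 (GRCm38, plus strand), encodes a zinc finger activator that binds GC-rich sites and induces its own corepressors. Its recovered reads were 2515, 436 and 507 in the OHT libraries, against 15, 28 and 60 in the EtOH libraries. After scaling by the size factors these were 1340, 431 and 727 normalised reads in OHT and 13.5, 32.2 and 76.6 in EtOH. Every OHT library was thus above every EtOH library, with 5.62-fold between the lowest OHT and the highest EtOH value, although the libraries of 1 side differed by up to 3.11-fold in OHT and 5.67-fold in EtOH. The log2 fold change of Egr1 in the authors' deposited table was 3.35 ± 0.62 (SE; 95% interval 2.13 to 4.57; adjusted p = 4.6e-07, DESeq2).

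Egr2 (chr10:67535475-67542188, plus strand), an EGR factor of myeloid and Schwann cell differentiation, rose too. Its values were 562, 308 and 1302 normalised reads in the OHT libraries, against 35.1, 23.0 and 89.3 in the EtOH libraries. The sides did not overlap, and the lowest OHT value was 3.45-fold above the highest EtOH value. The log2 fold change of Egr2 was 3.00 ± 0.62 (SE; 95% interval 1.78 to 4.21; adjusted p = 6.9e-06, DESeq2) in the authors' deposited table.

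Egr3 (chr14:70077203-70082614, plus strand), itself a target of the other EGR factors in lymphocytes, was far less abundant. It had 72, 9 and 65 reads in the OHT libraries, against 3, 1 and 22 in the EtOH libraries, or 38.4, 8.89 and 93.2 normalised reads in OHT and 2.70, 1.15 and 28.1 in EtOH. The sides overlapped, because the EtOH library with size factor 0.783 lay above the OHT library with size factor 1.01. Egr3 had a log2 fold change of 1.40 ± 0.71 (SE; 95% interval 0.01 to 2.79) and did not pass in the authors' deposited table (adjusted p = 0.0912, DESeq2; unadjusted p = 0.0486).

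The libraries that were high and low were partly shared by the EGR genes. On the EtOH side, the library with size factor 0.783 had the highest value of Egr1, Egr2 and Egr3, and on the OHT side the library with size factor 1.01 had the lowest value of all 3 genes. Left out 1 at a time, the libraries moved the log2 ratio of the mean normalised reads, OHT over EtOH, between 3.83 and 5.19 for Egr1, around 4.35 with all 6 libraries. For Egr2 the same ratio ran between 3.15 and 4.64, around 3.88, and for Egr3 between 1.15 and 4.605, around 2.14. The highest ratio of each came without the EtOH library with size factor 0.783. The lowest came without the OHT library with size factor 1.88 for Egr1, and without the one with 0.697 for Egr2 and Egr3. The ratio stayed above 0 for these 3 genes whichever library was left out.

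**Figure D2:**
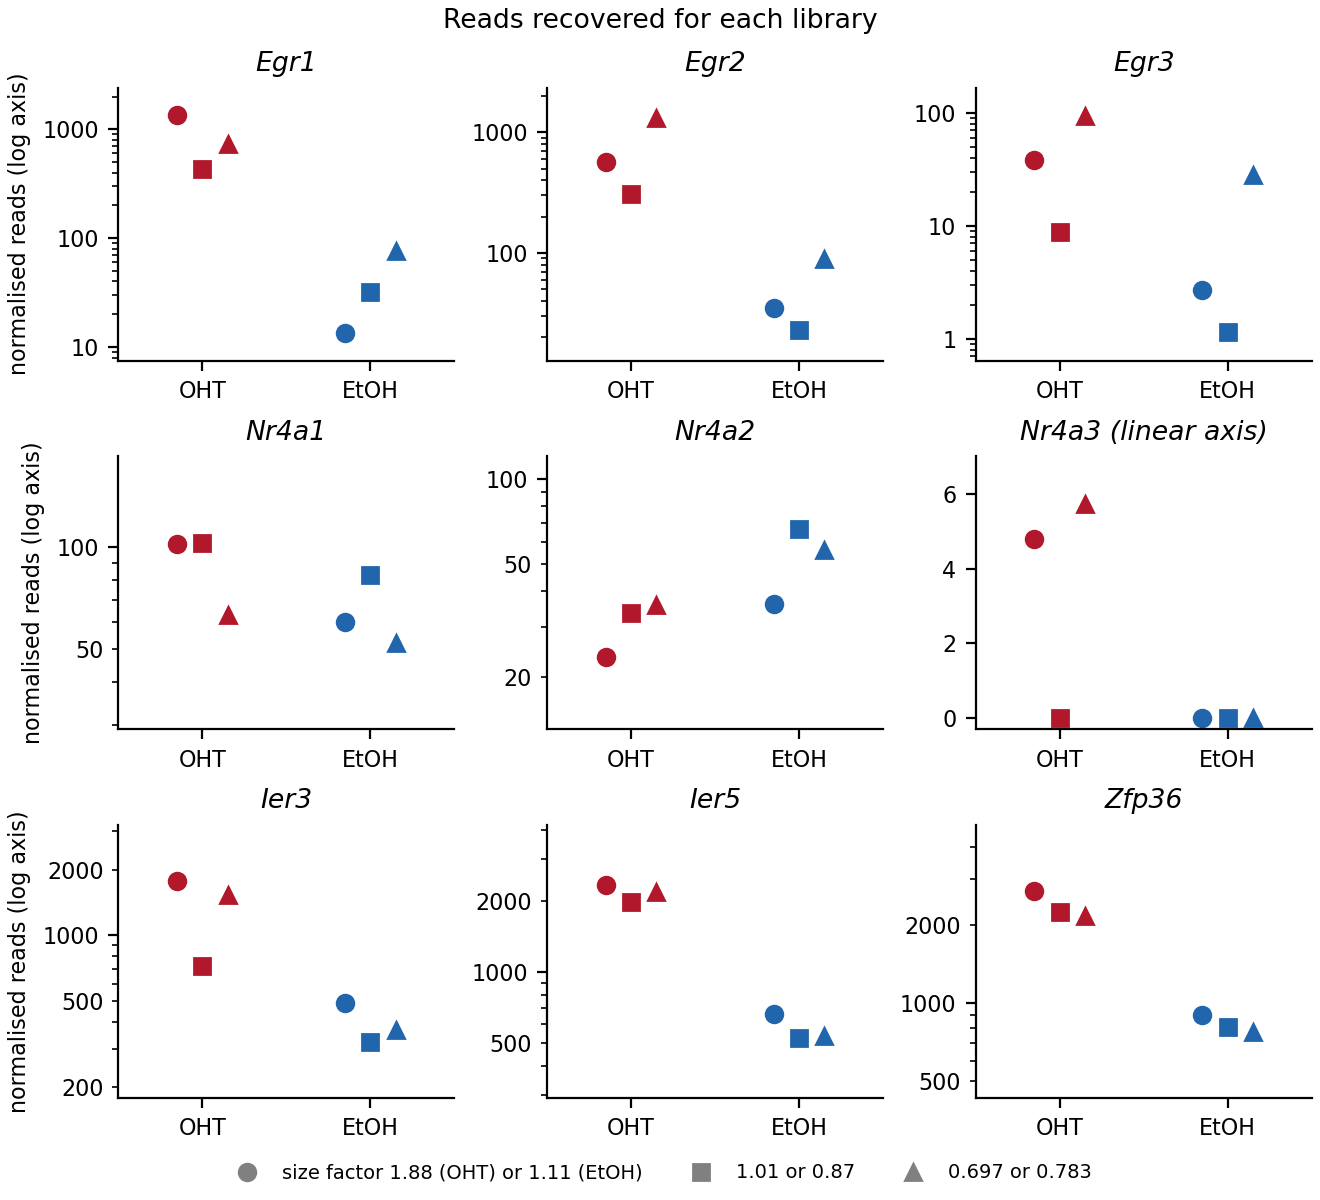
Normalised reads (y axis, log scale except for Nr4a3) in the 3 OHT libraries (left, red) and the 3 EtOH libraries (right, blue) for the 9 genes whose reads could be recovered. Symbols tell the libraries of 1 side apart by size factor and do not pair libraries across sides; the sides are apart for Egr1, Egr2, Ier3, Ier5 and Zfp36, nearly touch for Nr4a2 and overlap for Egr3, Nr4a1 and Nr4a3.

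Some markers of other cells were high and low in some of the same libraries, and others were not. Of the 12 listed monocyte and macrophage markers, all of them tested, 11 rose and 1 fell. Among them Cx3cr1, a chemokine receptor gene of monocytes, had 112, 25.7 and 51.6 normalised reads in the OHT libraries, against 4.50, 14.9 and 6.38 in the EtOH libraries. The sides did not overlap, and the OHT library with size factor 1.01 was lowest, as for the EGR genes, while the EtOH library with size factor 0.870 was highest. Of the 10 listed erythroid and megakaryocyte markers, 2 of 8 tested rose, beside 25.5% of all tested genes. The globin genes Hba-a1 and Hbb-bt are listed at 0. Reads were sought only for markers with a base mean of at most 250, and were recovered for 5 of these 10. Their summed level was 855, 55.3 and 1301 normalised reads in the OHT libraries and 46.8, 97.7 and 232 in the EtOH libraries. Tal1 alone had 506, 1.98 and 683 in OHT and 0.900, 49.4 and 126 in EtOH. The sum leaves out the more abundant Itga2b, which did not pass, and Vwf. Vwf rose by 3.82 ± 0.20 (SE) on the log2 scale in the authors' deposited table. The platelet chemokine gene Pf4 had 42.6, 10.9 and 501 normalised reads in OHT and 2.70, 1.15 and 47.2 in EtOH, with the same libraries high and low as Egr2 and Egr3. The part of such cells in the EGR values was not tested.

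The deposited fold changes of the EGR genes are smaller than the ratios of their means. Egr1 had a mean of 833 normalised reads in OHT and 40.8 in EtOH, a log2 ratio of 4.35, beside 3.35 in the authors' deposited table. For Egr2 the means were 724 in OHT and 49.1 in EtOH, a log2 ratio of 3.88, beside 3.00 in the authors' deposited table. For Egr3 they were 46.8 in OHT and 10.6 in EtOH, a log2 ratio of 2.14, beside 1.40 in the authors' deposited table. For Ier3, Ier5 and Zfp36 the log2 ratios of the means were 1.77, 1.91 and 1.52, beside 1.70, 1.88 and 1.50 in the authors' deposited table. The deposited values were pulled towards 0 by a prior with a standard deviation of 1.06 on the log2 scale for each group, as worked back from genes with 1 read, so a fold with a wide error is pulled more.

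**Figure D3:**
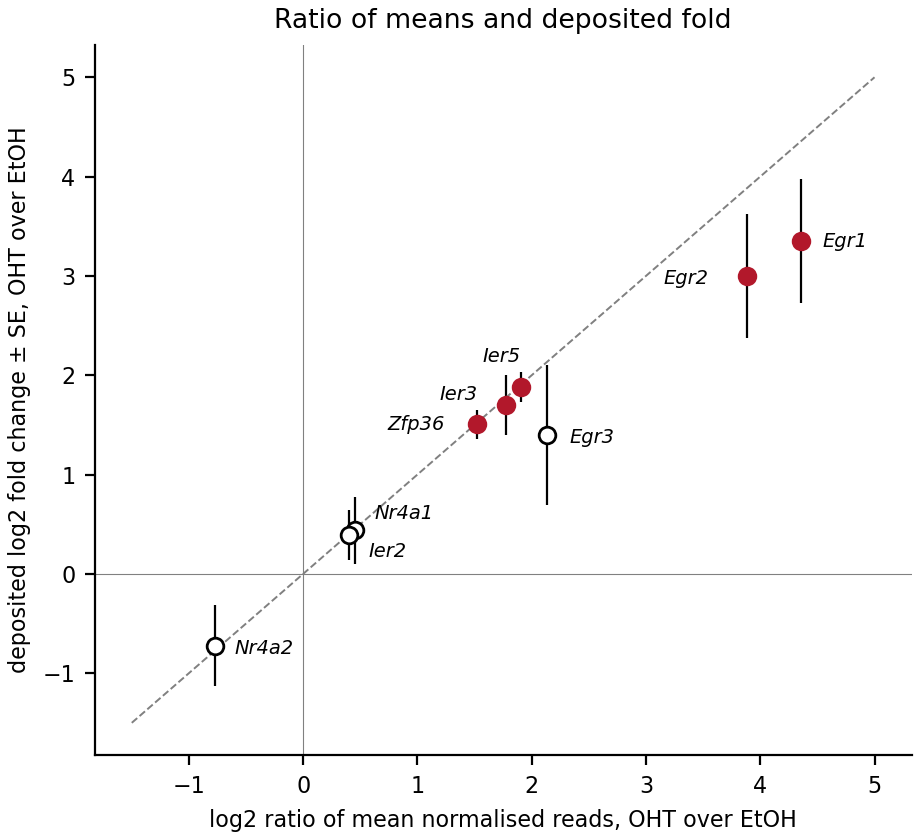
Deposited log2 fold change with its SE (y axis) against the log2 ratio of mean normalised reads, OHT over EtOH (x axis), for the 9 genes other than Nr4a3; the dashed line marks equal values. Ier3, Ier5, Zfp36, Nr4a1, Nr4a2 and Ier2 lie on or near the line, and Egr1, Egr2 and Egr3 lie below it.

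The 3 EGR genes also had large errors for their abundance. The SE of Egr1 was 0.62 in the authors' deposited table, above that of 98.7% of the 2049 tested genes within 1.5-fold of its base mean, whose median SE was 0.19. The SE of Egr2 was above that of 98.7% and the SE of Egr3 above that of 96.7% of the tested genes of like base mean. Ier2 and Ier3 were likewise above 96.6% and 96.8% of such genes, while Ier5, Zfp36, Nr4a1 and Nr4a2 lay in the middle, above 45.3%, 40.3%, 44.4% and 38.7%. Ier5 and Zfp36 had both a smaller fold change and a smaller SE there than Egr1 and Egr2.

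**Figure D4:**
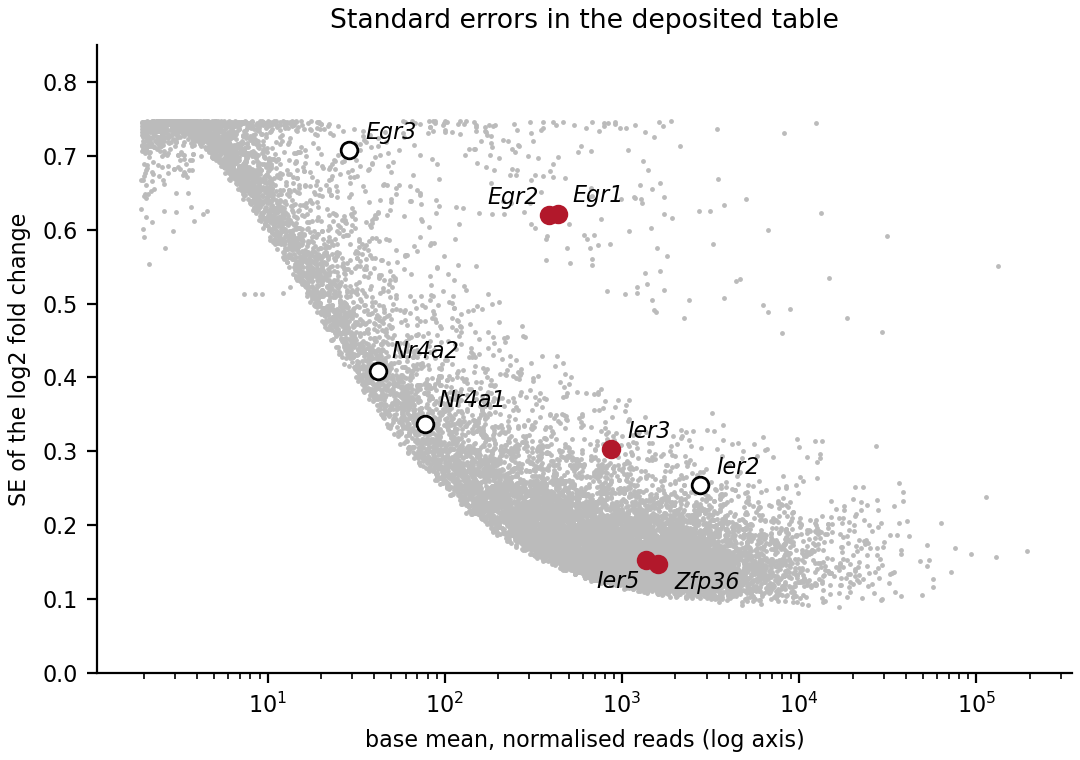
SE of the log2 fold change (y axis) against base mean in normalised reads (x axis, log scale) for the 13814 tested genes of the authors' deposited table (grey), with 9 of the 10 genes named. Egr1, Egr2 and Egr3 stand above the cloud at their base means, and Ier5 and Zfp36 lie within it.

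Ier5, Ier3 and Zfp36 rose with smaller folds. Ier5 (chr1:155096361-155099636, minus strand) encodes a partner of the phosphatase PP2A that promotes HSF1 activity. It had 2323, 1982 and 2171 normalised reads in the OHT libraries, against 666, 526 and 536 in the EtOH libraries. The sides were 2.98-fold apart at their nearest, and the libraries within a side agree within 1.26-fold. Ier5 was at a log2 fold change of 1.88 ± 0.15 (SE; 95% interval 1.58 to 2.18; adjusted p = 1.2e-32, DESeq2) in the authors' deposited table.

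Ier3 (chr17:35821684-35822923, plus strand), a short-lived stress protein that acts on ERK and AKT signalling and apoptosis, had 1783, 725 and 1525 normalised reads in the OHT libraries, against 490, 322 and 368 in the EtOH libraries. The lowest OHT library, the one with size factor 1.01 as for the EGR genes, was 1.48-fold above the highest EtOH library. Its log2 fold change in the authors' deposited table was 1.70 ± 0.30 (SE; 95% interval 1.10 to 2.29; adjusted p = 1.4e-07, DESeq2). Without that OHT library the log2 ratio of the means was 2.07, and without the OHT library with size factor 1.88 it was 1.52.

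Zfp36 (chr7:28376784-28380253, minus strand) had 2700, 2246 and 2168 normalised reads in the OHT libraries, against 898, 810 and 775 in the EtOH libraries. The sides were 2.41-fold apart at their nearest. Its log2 fold change was 1.50 ± 0.15 (SE; 95% interval 1.22 to 1.79; adjusted p = 6.9e-23, DESeq2) in the authors' deposited table. Exons of Zfp36 overlap the antisense gene Gm44710 in GENCODE M21, and the sources used here do not say whether the counting used strand, so the value of Zfp36 is uncertain to that extent.

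Ier2 (chr8:84661331-84662852, minus strand), a small nuclear protein induced by serum, was the most abundant member and did not pass. Its reads per library could not be recovered, but the deposited values bound the mean of each side, at 3114 to 3133 normalised reads in OHT and 2354 to 2373 in EtOH. In the authors' deposited table the log2 fold change of Ier2 was 0.39 ± 0.25 (SE; 95% interval -0.11 to 0.89; adjusted p = 0.202, DESeq2). A rise of up to 1.85-fold or a fall to 0.927-fold lies within that interval.

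The NR4A receptors act without a known classical ligand, so that their amount largely sets their activity. Neither Nr4a1 nor Nr4a2 passed, and Nr4a3 has no adjusted p-value. Nr4a1 (chr15:101254269-101274795, plus strand) had 102, 103 and 63.1 normalised reads in the OHT libraries, against 60.3, 82.8 and 52.3 in the EtOH libraries. The sides overlapped, since the OHT library with size factor 0.697 lay below the EtOH library with size factor 0.870. Its log2 fold change in the authors' deposited table was 0.44 ± 0.34 (SE; 95% interval -0.22 to 1.10; adjusted p = 0.287, DESeq2).

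Nr4a2 (chr2:57106830-57124003, minus strand) was the 1 member with a fold below 0. It had 44, 34 and 25 reads in the OHT libraries, against 40, 58 and 44 in the EtOH libraries, or 23.5, 33.6 and 35.9 normalised reads in OHT and 36.0, 66.7 and 56.2 in EtOH. All OHT values lay below all EtOH values, but the nearest differed by 1.00-fold, and the fold change did not pass. The log2 fold change of Nr4a2 was -0.72 ± 0.41 (SE; 95% interval -1.52 to 0.08; adjusted p = 0.133, DESeq2) in the authors' deposited table.

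Nr4a3 (chr4:48045153-48086447, plus strand) was nearly absent. It had 9, 0 and 4 reads in the OHT libraries, against 0, 0 and 0 in the EtOH libraries. The mean in OHT was 3.51 normalised reads, and a count of 0 over the EtOH group allows up to 1.09 (3 reads over the group, counting error only). Their ratio of 3.24 leaves out the error of the OHT mean and is no lower limit of the fold. One of the 3 OHT libraries was at 0 too. Its log2 fold change in the authors' deposited table was 0.81 ± 0.63 (SE), with no adjusted p-value.

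Per length, the order of the members differed between OHT and EtOH for the EGR and NR4A genes. Mean normalised reads per kb of annotated exon were 2052 in OHT and 1553 in EtOH for Ier2, from the middle of its bounds, 1189 in OHT and 347 in EtOH for Ier3, 683 in OHT and 239 in EtOH for Zfp36, and 659 in OHT and 176 in EtOH for Ier5. These 4 genes kept the first 4 places on both sides. Per kb, Egr2 had 213 in OHT and 14.5 in EtOH and Egr1 had 186 in OHT and 9.09 in EtOH, while Nr4a1 had 25.4 in OHT and 18.6 in EtOH. Nr4a1 thus ranked below Egr1 and Egr2 in OHT and above both in EtOH. In the EtOH libraries the ranges per kb of Egr1 (3.01 to 17.1), Egr2 (6.77 to 26.3), Nr4a1 (14.9 to 23.6) and Nr4a2 (8.87 to 16.4) overlapped, so these neighbours do not differ beyond their spread. In OHT, Ier3 (641 to 1577 per kb), Zfp36 (625 to 778) and Ier5 (605 to 709) overlapped, as did Egr1 (96.0 to 299) and Egr2 (90.7 to 383).

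The sequence before the start site was read for the 7 members with a RefSeq start in the table used (11 starts, 250 bases before each, GRCm38.p6). Starts of Egr1, Egr3 and Ier2 were not analysed here. On either strand, 1.47% of 32851 such windows in the genome hold the CArG box that SRF binds, 17.8% hold TGACG, the core of a CREB site, and 7.25% hold an NF-κB site, the kappa-B motif. These motifs were picked from a wider set after their matches had been seen. One window each of Egr2, Zfp36, Ier3, Nr4a1 and Nr4a2 that holds such a motif is printed, with CArG box, TGACG (or CGTCA on the other strand) and kappa-B letters in capitals.

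The Egr2 window shown (chr10:67537619-67537868, plus strand) holds a CArG box that begins 72 bases before the start and TGACG matches at 111 and 55 bases. Of the 5 windows of Egr2, 4 hold a CArG box, but those that begin at chr10:67537619, 67537620 and 67537680 overlap and hold the same box. The other window (chr10:67535249-67535498) holds no CArG box and no TGACG but overlapping kappa-B matches at 117 and 116 bases. For Zfp36, 30 bases around the CArG box are shown (chr7:28379267-28379296, minus strand), which begins 58 bases before the RefSeq start, a stretch that GENCODE M21 also annotates as exon of a longer transcript. The Ier3 window (chr17:35821463-35821683, plus strand), cut at its annotated exon, holds a kappa-B match at 92 bases. The windows of Nr4a1 (chr15:101266596-101266845, plus strand) and Nr4a2 (chr2:57124004-57124253, minus strand) hold 4 TGACG matches each and no CArG box.
Egr2: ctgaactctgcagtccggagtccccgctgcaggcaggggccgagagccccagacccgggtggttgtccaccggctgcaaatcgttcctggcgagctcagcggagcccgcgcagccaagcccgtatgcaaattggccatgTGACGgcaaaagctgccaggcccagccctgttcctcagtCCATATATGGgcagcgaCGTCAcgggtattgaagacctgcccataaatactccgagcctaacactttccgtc
Zfp36: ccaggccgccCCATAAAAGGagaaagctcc
Ier3: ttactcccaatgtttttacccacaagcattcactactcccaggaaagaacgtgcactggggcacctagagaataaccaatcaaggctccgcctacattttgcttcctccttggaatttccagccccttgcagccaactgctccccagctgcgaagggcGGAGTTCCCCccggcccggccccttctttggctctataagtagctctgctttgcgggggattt
Nr4a1: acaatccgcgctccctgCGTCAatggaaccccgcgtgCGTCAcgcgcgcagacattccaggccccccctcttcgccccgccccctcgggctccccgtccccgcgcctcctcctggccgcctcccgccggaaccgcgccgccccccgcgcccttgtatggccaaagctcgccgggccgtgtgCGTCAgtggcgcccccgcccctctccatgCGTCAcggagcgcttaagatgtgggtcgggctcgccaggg
Nr4a2: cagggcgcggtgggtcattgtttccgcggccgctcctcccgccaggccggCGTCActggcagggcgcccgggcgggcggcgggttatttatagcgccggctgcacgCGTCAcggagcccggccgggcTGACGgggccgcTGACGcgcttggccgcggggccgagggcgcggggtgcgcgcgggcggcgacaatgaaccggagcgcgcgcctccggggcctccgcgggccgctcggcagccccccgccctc
Nr4a3 also has 4 TGACG matches. The Ier5 window holds none of these motifs. The full CREB site TGACGTCA, held by 1.55% of windows, and AAAGGTCA, the site of NR4A monomers, held by 1.34%, are in none of the 11 windows. The EGR site GCGGGGGCG, held by 2.57% of windows, is in those of Zfp36 and Nr4a1. A match is a description of these letters, and binding was not measured.

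The 3 tested paralogs of members rose. Zfp36l1, which encodes a ZFP36 paralog, had 879, 485 and 667 normalised reads in the OHT libraries, against 183, 153 and 112 in the EtOH libraries, with no overlap. Its log2 fold change was 2.10 ± 0.27 (SE; adjusted p = 1.2e-13, DESeq2) in the authors' deposited table. There the paralog Zfp36l2 was at 0.92 ± 0.17 (SE; adjusted p = 2.4e-07, DESeq2) and the Ier5 paralog Ier5l, with a base mean of 8.91 normalised reads, at 2.11 ± 0.71 (SE; adjusted p = 0.00772, DESeq2), both in the authors' deposited table. Egr4 had 2 reads in the 3 OHT libraries and 0 in EtOH, Zfp36l3 had 1 read in all, and Wt1 is listed at 0.

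The EGR corepressors both rose. Nab2, an EGR target that binds and represses EGR1, had 309, 173 and 311 normalised reads in the OHT libraries, against 21.6, 29.9 and 39.6 in the EtOH libraries, 4.37-fold apart at the nearest. In the authors' deposited table the log2 fold change of Nab2 was 2.96 ± 0.34 (SE; adjusted p = 1.0e-16, DESeq2) and that of Nab1 0.43 ± 0.12 (SE; adjusted p = 0.00113, DESeq2). As for Egr1 and Egr2, the OHT library with size factor 1.01 was lowest and the EtOH library with size factor 0.783 highest for Nab2. Among 9 tested genes listed as EGR targets, Nab2 included, 4 rose and 1 fell, and the list's median on the log2 scale was 0.72 in the authors' deposited table. Others that rose were the adhesion genes Cd44 (1.60 ± 0.16 SE) and Icam1 (1.28 ± 0.19) in the authors' deposited table. Gadd45b, a stress-response gene, fell there (-0.55 ± 0.17 SE), and Tgfb1 had 0.26 ± 0.13 and did not pass in the authors' deposited table.

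Of the retinoid X receptors with which NR4A1 and NR4A2 can pair, Rxra rose and Rxrb fell. Their log2 fold changes in the authors' deposited table were 2.43 ± 0.19 (SE; adjusted p = 1.1e-35, DESeq2) for Rxra and -0.47 ± 0.19 (SE; adjusted p = 0.0261, DESeq2) for Rxrb. Rxrg had no adjusted p-value there.

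The factors and kinases upstream of immediate early genes were mixed. Srf itself fell (-0.51 ± 0.15 SE, adjusted p = 0.00206, DESeq2, in the authors' deposited table). The 5 cofactors with an adjusted p-value rose on the log2 scale in the authors' deposited table: Mkl1 by 1.35 ± 0.22 (SE), Mkl2 by 1.27 ± 0.25, Elk4 by 0.95 ± 0.25, Elk1 by 0.87 ± 0.22 and Elk3 by 0.82 ± 0.20. Myocd had no adjusted p-value there. In the CREB family and its coactivators, 5 of 10 tested genes rose and 1 fell, and the list's median on the log2 scale was 0.50 in the authors' deposited table. Those named by abundance or size were Ep300 (0.94 ± 0.18 SE), Crtc2 (0.41 ± 0.18), Creb3 (0.79 ± 0.19) and Creb5 (1.77 ± 0.44), Atf1, which fell (-0.37 ± 0.15), and Creb1, which did not pass (-0.10 ± 0.12), in the authors' deposited table. In the RAS-ERK list, the kinase cascade from RAS to ERK and its targets, 7 of 15 tested genes rose and 1 fell, and the list's median on the log2 scale was 0.40 in the authors' deposited table. Mapk3, which encodes ERK1, rose by 1.00 ± 0.20 (SE) on the log2 scale in the authors' deposited table.

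Other immediate early genes were counted in the same way. In the AP-1 and KLF list 10 of 11 tested genes rose and 0 fell, and the list's median on the log2 scale was 2.03 in the authors' deposited table. Fos (3.57 ± 0.21 SE), Fosl2 (2.10 ± 0.21), Klf6 (2.03 ± 0.19), Junb (0.98 ± 0.23) and Jund (0.54 ± 0.21) are examples from the authors' deposited table. Fosl1 had 10.7, 4.94 and 7.17 normalised reads in OHT and 11.7, 6.90 and 12.8 in EtOH and did not pass. Among 19 further immediate early genes tested, 12 rose and 3 fell, and the list's median on the log2 scale was 0.91 in the authors' deposited table. The kinase Plk2 (2.98 ± 0.68 SE), the survival gene Mcl1 (1.13 ± 0.15) and Rhob (0.73 ± 0.20) rose, and Myc (-1.63 ± 0.11) and the kinase Pim1 (-0.75 ± 0.16) fell in the authors' deposited table. Whether these lists differ from the members was not tested.

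Genes tied to ZFP36 did not move one way. Of 12 tested mRNAs listed as ZFP36 targets, 7 rose and 1 fell, and the list's median on the log2 scale was 1.76 in the authors' deposited table, and this list holds Ier3. Among them the chemokine genes Cxcl2 (3.66 ± 0.63 SE) and Ccl2 (2.25 ± 0.75) and the cytokine gene Tnf (1.82 ± 0.29) rose, Pim1 fell, and Ccl3 (1.57 ± 0.73) did not pass in the authors' deposited table. In the CCR4-NOT and decapping list, the machinery that ZFP36 recruits, 2 of 19 tested genes rose and 2 fell, and the list's median on the log2 scale was -0.02 in the authors' deposited table. Those were Xrn1 (1.13 ± 0.28 SE) and Pan2 (0.67 ± 0.18), which rose, and Cnot10 (-0.51 ± 0.12) and Rqcd1 (-0.55 ± 0.13), the symbol used for Cnot9, which fell in the authors' deposited table. The scaffold gene Cnot1 did not pass (0.31 ± 0.20 SE in the authors' deposited table). Of 6 tested kinases of the p38 and MK2 pathway, through which ZFP36 is phosphorylated and held inactive, 2 rose and 1 fell. Mapk13 (2.19 ± 0.27 SE) and Map2k3 (0.36 ± 0.11) rose and Map2k6 (-1.001 ± 0.29) fell in the authors' deposited table. Mapkapk2, which encodes MK2 (-0.22 ± 0.13 SE), and Mapkapk3 (-0.18 ± 0.14) did not pass there. Among 7 other AU-rich element binding proteins, Zfp36l1 and Zfp36l2 rose and Hnrnpd (-0.79 ± 0.15 SE), Tial1 (-0.54 ± 0.15) and Elavl1 (-0.48 ± 0.15) fell in the authors' deposited table.

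**Figure D5:**
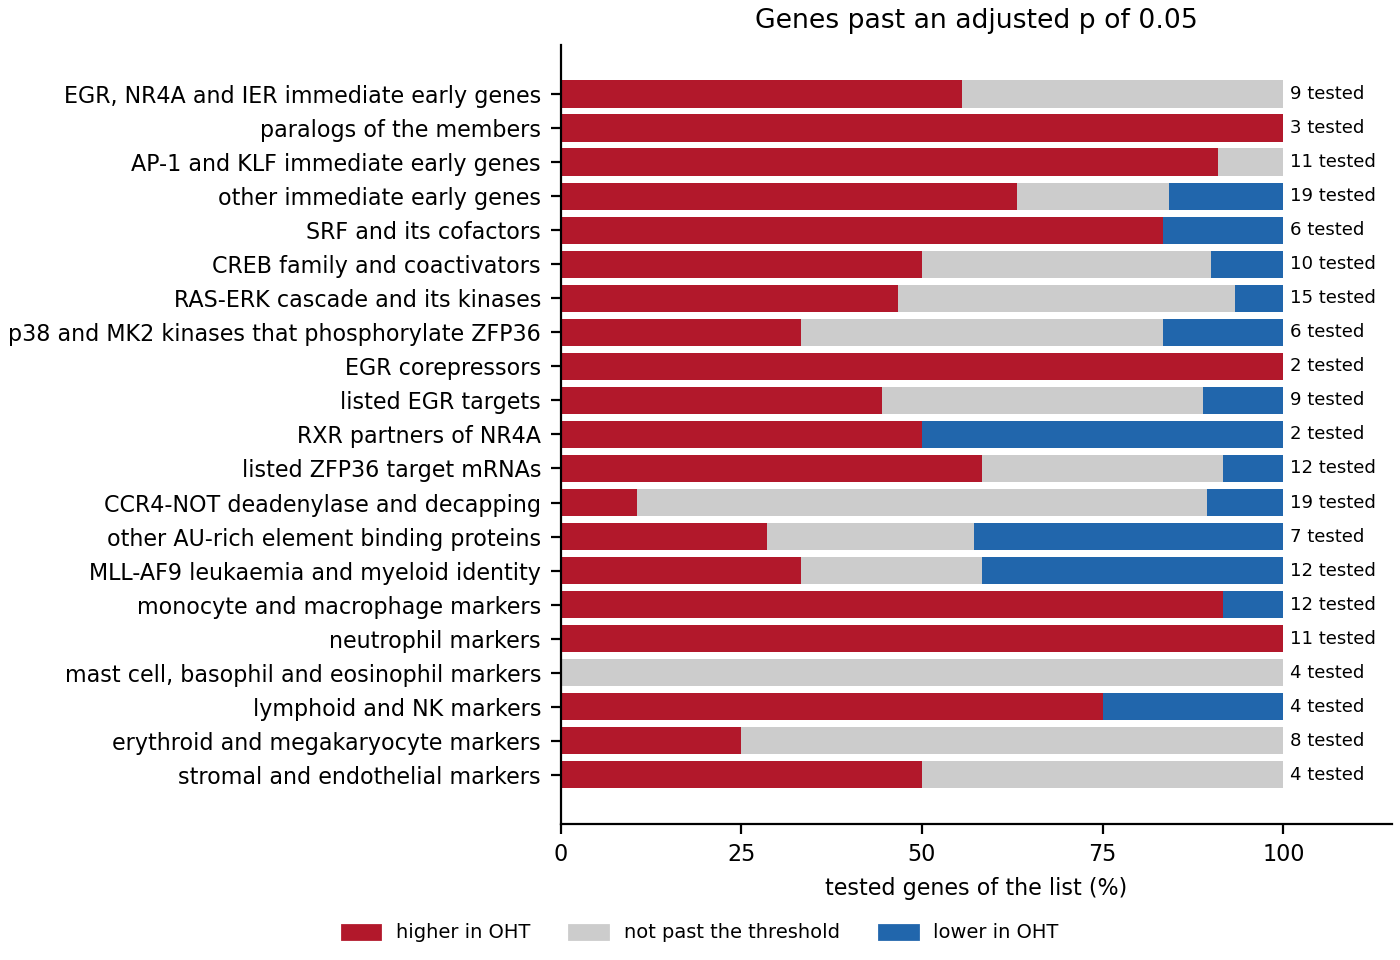
Share of the tested genes of each list (x axis, percent) that were higher in OHT (red), not past an adjusted p of 0.05 (grey) or lower in OHT (blue), with the number tested. Of the members 5 of 9 were higher, beside 10 of 11 AP-1 and KLF genes and 2 of 19 deadenylation and decapping genes.

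The labelled cell type was checked on its markers. In the list of leukaemia and myeloid identity genes 12 of 12 were tested, of which 4 rose and 5 fell. Mpo (-2.37 ± 0.23 SE) fell and Itgam (2.44 ± 0.12) and Ptprc (1.10 ± 0.12) rose in the authors' deposited table. Spi1 (0.71 ± 0.13 SE) and Csf1r (2.96 ± 0.20) rose there too. The leukaemia genes Hoxa9 (-0.55 ± 0.19 SE), Hoxa10 (-0.42 ± 0.14), Meis1 (-0.41 ± 0.14) and Myb (-0.87 ± 0.11) fell in the authors' deposited table. These 4 genes had base means of 3009, 1876, 1648 and 6597 normalised reads. All 11 tested neutrophil markers rose, at log2 fold changes of 1.52 to 3.37 in the authors' deposited table. None of the 4 tested mast cell, basophil and eosinophil markers passed, with SEs of 0.62 to 0.74 in the authors' deposited table. They were abundant, with base means of 13267 (Cpa3), 1298 (Fcer1a), 970 (Gata2) and 786 (Ms4a2) normalised reads. The other 4 of 8 listed have no adjusted p-value there, although Mcpt8, Prg2 and Epx had base means of 3144, 2880 and 379. Mcpt8, Prg2 and Epx have no unadjusted p-value there either, unlike the remaining gene, Il5ra. Of lymphoid and NK markers 3 of 4 tested rose and 1 fell, with 3 of 10 listed at 0, and of stromal and endothelial markers 2 of 4 tested rose. The 7 of 8 stromal and endothelial markers with recovered reads summed to between 148 and 320.0 normalised reads in the OHT libraries and between 102 and 127 in the EtOH libraries. That sum leaves out Pecam1, whose base mean of 1579 normalised reads is above the limit of 250 set for the recovery of marker reads. The part of cell composition in the members' values was not tested.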

How the data were processed

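Column-purified RNA went into TruSeq libraries, per the labels' protocols. The genome build was mm10, and HTSeq 0.9.1, DESeq2, DESeq, STAR 2.7.2b and Trimmomatic 0.38.0 were used, per the submitters' processing notes; the sources used here do not say how, strand included. The deposited base mean is a signal in normalised reads, the deposited fold change and its SE are on the log2 scale, and the deposited Wald score, p-value and adjusted p-value follow. The score equalled the fold change over its SE within 7.6e-08, and the adjusted p equalled a Benjamini-Hochberg adjustment over 13814 genes within 2.3e-07. Values per sample fill 0 columns. The threshold was an adjusted p under 0.05, and 95% intervals are the fold change ± 1.96 SE. Members and lists were chosen with earlier results of these data known, and no list was tested. Named genes are the members, Riok2, every tested paralog, corepressor, RXR and SRF gene, and in other lists the most abundant past the threshold, the largest fold and the most abundant not past it. Marker lists name fewer. Cx3cr1, Pf4, Tal1, Epor, Klf1, Mapkapk2, Fcer1a, Gata2, Ms4a2, Mcpt8, Prg2, Epx, Hba-a1 and Hbb-bt were named after their values were seen. So were Il5ra, Hoxa9, Hoxa10, Meis1 and Myb. Some genes that this rule names are not reported here.

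Reads per library were worked back in Python 3.11.15 with numpy 2.4.6, scipy 1.17.1 and numba 0.67.0. Base means of the 4645 genes at or under 5 each have exactly 1 solution in whole reads of 6 libraries, which gives the size factors. The side of a library is the sign of the deposited fold of genes with 1 read in it. For larger genes, whole reads were sought that return the base mean, SE and log2 fold change under a refit of the negative binomial model with a normal prior, which returned the fold within 1e-08 for 96.9% of 1652 genes with known reads. A solution was accepted with a mismatch under 2e-09, the next above 1e-08, and a log dispersion within 0.001 of the shrunken or gene-wise estimate from the same reads. For Ier3, Ier5 and Zfp36 the search was limited to libraries near their side's mean, where more than 1 solution can match the fold. The accepted one had the log dispersion nearest the shrunken estimate, with a difference of 0.00012, 6e-05 and 0.00022 for these genes, while the next was at 0.26 for Ier5 and 0.43 for Zfp36 and Ier3 had no other. Where 2 dispersions return a fold and SE, both were searched, and Pf4 and Tal1 have the higher one. These rules were set after solutions had been seen. Averaging recovered libraries departs from the plan, which left them unaveraged. The count of reads gives counting error only. On reads simulated at the means of 8 members, 8 were solved and 0 were wrong. An earlier form of the dispersion rule, revised after these checks had been seen, left Egr1 unsolved there. All simulated SEs came from the shrunken dispersion. Among the members, the reads of Egr1 and Egr2 were accepted on the gene-wise estimate, so the simulation did not check that route. Positions and exon lengths are from GENCODE M21 on GRCm38.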

Additional observations from a re-analysis of the deposited data

How the results depend on the processing

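Other settings tried were a threshold of 0.01, adjustment over every gene with a p-value, a base mean of at least 100, a test against an absolute log2 fold change of 0.5, fold changes minus the median of all tested genes (0.05), and genes with an SE above 0.5 left out. The count of members higher was 5 and the count lower 0 under each but the last. Members tested were 9, but 10 with adjustment over every p-value and 6 at a base mean of at least 100. Over all genes, the count higher was 2855 of 13814 at a threshold of 0.01, and 3411 of 17477 with adjustment over every p-value. It was 2954 of 9888 at a base mean of at least 100, and 1440 of 13814 against 0.5. With the median subtracted it was 3307 of 13814. The same 5 thus stands beside a different share in each. With genes of an SE above 0.5 left out, which removes Egr1, Egr2 and Egr3 by construction, 3 of 6 members tested were higher, beside 3133 of 10878 genes. The median of the members was then 0.97 on the log2 scale, against 1.50. All 49 values of single members kept their direction and side of the threshold where they could be computed. Much of this was fixed in advance. Only the shift by the median changes a fold, by 0.05, beside a smallest absolute log2 fold change of 0.39 (Ier2), so no direction could change. The threshold of 0.01 and the test against 0.5 can only remove calls, so members not called before could not switch sides there. Leaving out libraries was added after seeing the data: the log2 ratio of means ranged over 3.83 to 5.19 (Egr1), 3.15 to 4.64 (Egr2), 1.15 to 4.605 (Egr3), 0.32 to 0.66 (Nr4a1), -0.99 to -0.57 (Nr4a2), 1.52 to 2.07 (Ier3), 1.84 to 2.02 (Ier5) and 1.41 to 1.58 (Zfp36). These are ratios with no test. No paired analysis was possible because the deposited table has no columns per sample and the recovered libraries carry no replicate numbers. Other count tools were not run, since reads were recovered for single genes and not for the whole table. Depth limits Nr4a3, with 13 reads in all, and Egr3, with 26 reads in EtOH.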
